A study of Homo sapiens with 26 samples.

Results

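Forkhead genes other than FOXA were followed across peak lists of FOXA1, a forkhead protein itself, and of HNF4A. The genes were the autosomal protein-coding genes of GENCODE release 44, lifted to GRCh37, whose symbols are FOX followed by a letter from B to S and a number. There were 47 of them among 19229 autosomal protein-coding genes. The rule used symbols alone and no measured value, but it was set with earlier results of these data known. The pattern also takes in FOXL2NB, a neighbour of FOXL2 that is not a forkhead gene, and leaves out FOXA1, FOXA2, FOXA3 and the genes on chromosome X. A peak was counted at a gene when it shared at least 1 bp with the gene body or the 20 kb on either side, called the window here. Such a peak can lie in or near a neighbouring gene. The only FOXA1 peak of FOXN1, for example, lay in an intron of PIGS and RSKR. The windows of FOXC2 and FOXL1, of FOXL2 and FOXL2NB, and of FOXE3 and FOXD2 overlap, so those genes can share a peak, and totals count each peak once.

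The peaks came from chromatin immunoprecipitation and sequencing (ChIP-seq) in the BJ cell line, which is derived from fibroblasts of human foreskin. The 5 constructs were HALO-tagged FOXA1, 3 FOXA1 variants that the labels name FOXA1dbd, FOXA1nhaa and FOXA1rraa, and HNF4A. All were expressed ectopically for 48 hours and precipitated with an antibody to the tag, and each has 2 ChIP libraries and 2 input libraries. Each construct has 1 full peak list in hg19 coordinates, so replicate error could not be measured and constructs are set side by side without a test. Ranges after a percentage are 95% Wilson intervals and cover counting error alone. Beside a count of 0, the share it allows is 3 counts of the total. How deeply the libraries were sequenced is unknown, and they hold no expression values against which the cell type could be checked. After repeated rows were counted once, the lists held between 28707 (FOXA1dbd) and 153247 (FOXA1) autosomal peaks.

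Forkhead proteins share a winged-helix DNA-binding domain and recognise related sequences built around TGTTTAC and its variants, so a FOXA1 site can in principle also be read by other family members. FOXA1 is known as a pioneer factor, able to bind its sites in closed chromatin, and like the nuclear receptor HNF4A it is best known as a regulator of liver and other endodermal tissues. Many forkhead genes are short, have few introns, and act in the patterning of the embryo, whereas FOXP, FOXN, FOXJ, FOXK and FOXO genes that are widely expressed can be long.

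In the 47 windows together there were 264 FOXA1 peaks, 50 FOXA1dbd peaks, 190 FOXA1nhaa peaks, 134 FOXA1rraa peaks and 105 HNF4A peaks. At least 1 FOXA1 peak was found at 29 of the 47 genes (61.7%, 47.4 to 74.2), compared with 77.2% of all autosomal protein-coding genes. FOXA1dbd peaks were found at 15 genes (31.9%, 20.4 to 46.2, all genes 47.2%), FOXA1nhaa peaks at 25 (53.2%, 39.2 to 66.7, all genes 70.8%) and FOXA1rraa peaks at 23 (48.9%, 35.3 to 62.8, all genes 62.9%). HNF4A peaks were found at 28 genes (59.6%, 45.3 to 72.4, all genes 77.4%). The 5 shares were below those of all genes, and each all-gene share lay above the interval. The 47 genes include 7 near-identical copies of FOXD4, which had no peak in any list, so leaving them out raises each share. The 5 shares stayed below those of all genes when the copies were left out. Without the copies 72.5% of the other 40 genes had a FOXA1 peak (57.2 to 83.9), 37.5% a FOXA1dbd peak (24.2 to 53.0), 62.5% a FOXA1nhaa peak (47.0 to 75.8), 57.5% a FOXA1rraa peak (42.2 to 71.5) and 70.0% an HNF4A peak (54.6 to 81.9), and each interval took in the all-gene share. Forkhead windows were also shorter, with a median of 44.9 kb compared with 67.6 kb. Among the 32 forkhead genes with windows under 60 kb, 50% had a FOXA1 peak (33.6 to 66.4), compared with 61.4% of the 8013 genes with such windows, and 46.9% had an HNF4A peak (30.9 to 63.6), compared with 69.5%. For the variants the shares were 21.9% with FOXA1dbd (11.0 to 38.8, all genes 25.8%), 40.6% with FOXA1nhaa (25.5 to 57.7, all genes 51.6%) and 34.4% with FOXA1rraa (20.4 to 51.7, all genes 41.5%). For genes of that window size the intervals of FOXA1 and the 3 variants took in the all-gene share, and the HNF4A interval did not. All 7 copies have such windows, and without them the HNF4A interval also took in the all-gene share, at 60% (40.7 to 76.6). The shares of the other lists were then above those of all genes, with intervals that took them in, with 64.0% having a FOXA1 peak (44.5 to 79.8), 28.0% a FOXA1dbd peak (14.3 to 47.6), 52.0% a FOXA1nhaa peak (33.5 to 70.0) and 44% a FOXA1rraa peak (26.7 to 62.9).

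**Figure D1:**
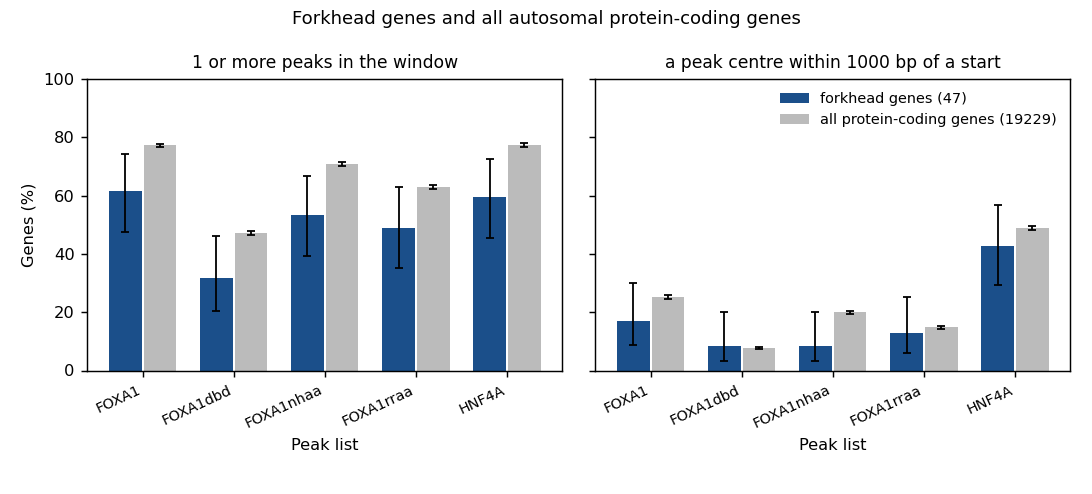
Bars show the percentage of the 47 forkhead genes (blue) and of all 19229 autosomal protein-coding genes (grey) with 1 or more peaks in the window (left) or with a peak centre within 1000 bp of an annotated start of the gene (right), for each list, and lines show 95% Wilson intervals. On the left each blue bar is below its grey neighbour; on the right the HNF4A pair is the highest, at 42.6% and 48.8%.

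FOXA1 and HNF4A peaks were both present at 24 forkhead genes (51.1%, 37.2 to 64.7, all genes 63.9%). FOXP2, FOXN4, FOXI1 and FOXL3 were among those with FOXA1 but no HNF4A peaks. FOXP4, FOXO6, FOXF1 and FOXH1 had HNF4A but no FOXA1 peaks. The 11 genes with a peak in every list were FOXP1, FOXJ3, FOXN3, FOXO3, FOXK1, FOXK2, FOXB1, FOXC1, FOXC2, FOXL1 and FOXR1 (23.4%, all genes 36.7%). No peak of any list was found at 11 genes (23.4%, 13.6 to 37.2, all genes 7.02%), which were the 7 copies of FOXD4 together with FOXD2, FOXI2, FOXI3 and FOXJ1. Without the copies that share was 10% (3.96 to 23.1), which takes in the share of all genes, and a peak in every list was found at 27.5% (16.1 to 42.8).

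**Figure D2:**
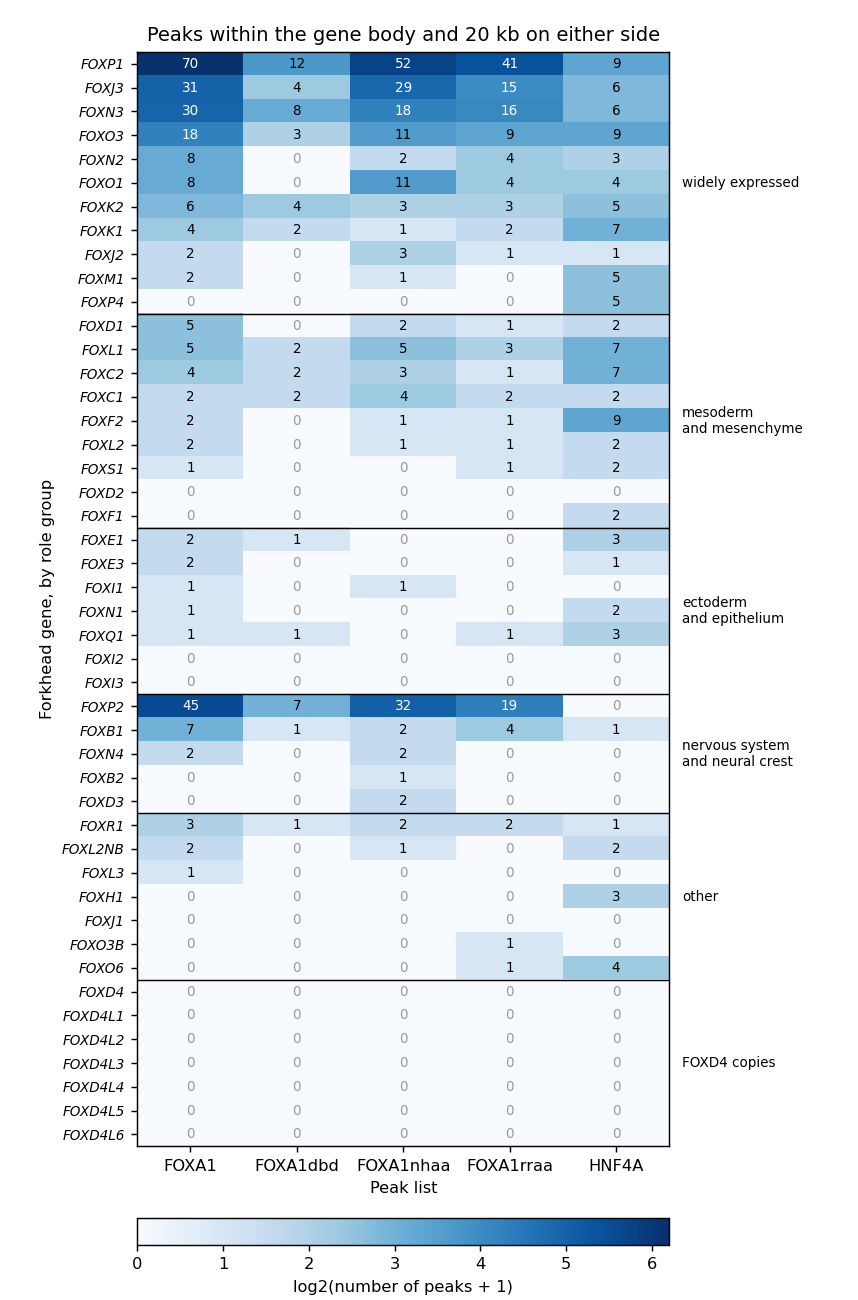
The number in each cell is the count of peaks in the window of a forkhead gene (rows, grouped by role, 1 gene not shown) in a list (columns), and darker blue is a higher log2(count + 1). FOXP1, FOXP2, FOXJ3 and FOXN3 stand out with 30 to 70 FOXA1 peaks each, FOXP2 has 0 HNF4A peaks, and the FOXD4 copies have 0 in every column.

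The peaks were unevenly spread over the family. FOXP1, FOXP2, FOXJ3 and FOXN3 held 176 of the 264 FOXA1 peaks (66.7%), and their share was 62.0% of the FOXA1dbd peaks, 68.9% of the FOXA1nhaa peaks and 67.9% of the FOXA1rraa peaks. Of the HNF4A peaks they held 21 of 105 (20%). These 4 genes are long, with windows of 199 to 669 kb, and the counts do not allow for length. Per 100 kb of window, the median forkhead gene had 2.80 FOXA1 peaks compared with 4.04 for all genes, and 2.02 HNF4A peaks compared with 2.34. Without the FOXD4 copies the HNF4A median was 2.81, above that of all genes. The medians over 39 HOX genes, another family of developmental regulators, were 1.26 and 3.12, and those over 18 SOX genes were 1.02 and 1.13.

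Among the 11 widely expressed genes, 10 had FOXA1 peaks (all genes 77.2%) and all 11 had HNF4A peaks (all genes 77.4%), over windows of 2336 kb in total. FOXP1, a repressor needed in B-cell, heart and lung development, spans chr3:71003844-71633129 on the minus strand and had the most peaks of the family. It had 70 FOXA1, 12 FOXA1dbd, 52 FOXA1nhaa, 41 FOXA1rraa and 9 HNF4A peaks, and its FOXA1 density was 10.5 peaks per 100 kb. The peaks were not evenly laid along the gene. Between 400 and 500 kb from its 5′ end there were 12 FOXA1 peaks and between 500 and 600 kb 25, against 2 between 100 and 200 kb. FOXP1 has 67 annotated starts, and 12 of its FOXA1 peaks had their centre within 1000 bp of such a start. FOXA1nhaa peaks followed the same end of the gene with 14 between 500 and 600 kb, whereas the 9 HNF4A peaks were scattered, with 4 in the first 100 kb and 1 between 500 and 600 kb.

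FOXJ3, which takes part in muscle and germ-cell gene control, lies at chr1:42642210-42801548 and had the highest FOXA1 density of the family. There were 31 FOXA1, 4 FOXA1dbd, 29 FOXA1nhaa, 15 FOXA1rraa and 6 HNF4A peaks. Its 15.6 FOXA1 peaks per 100 kb were above the density of 89.2% of all genes, and its 14.5 FOXA1nhaa peaks per 100 kb above that of 96.8%. The first 100 kb of the gene held 18 of the FOXA1 peaks. FOXN3, a checkpoint-linked repressor at chr14:89591215-90085493, had 30 FOXA1, 8 FOXA1dbd, 18 FOXA1nhaa, 16 FOXA1rraa and 6 HNF4A peaks, with between 4 and 8 FOXA1 peaks in each 100 kb of the gene. FOXP2, known for its part in speech and language circuits and listed with the nervous system genes, lies at chr7:113726382-114333827. It had 45 FOXA1, 7 FOXA1dbd, 32 FOXA1nhaa, 19 FOXA1rraa and 0 HNF4A peaks over a window of 647 kb. Also within 100 kb on either side of FOXP2 there was no HNF4A peak, while 58 FOXA1 peaks were counted over that span.

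**Figure D3:**
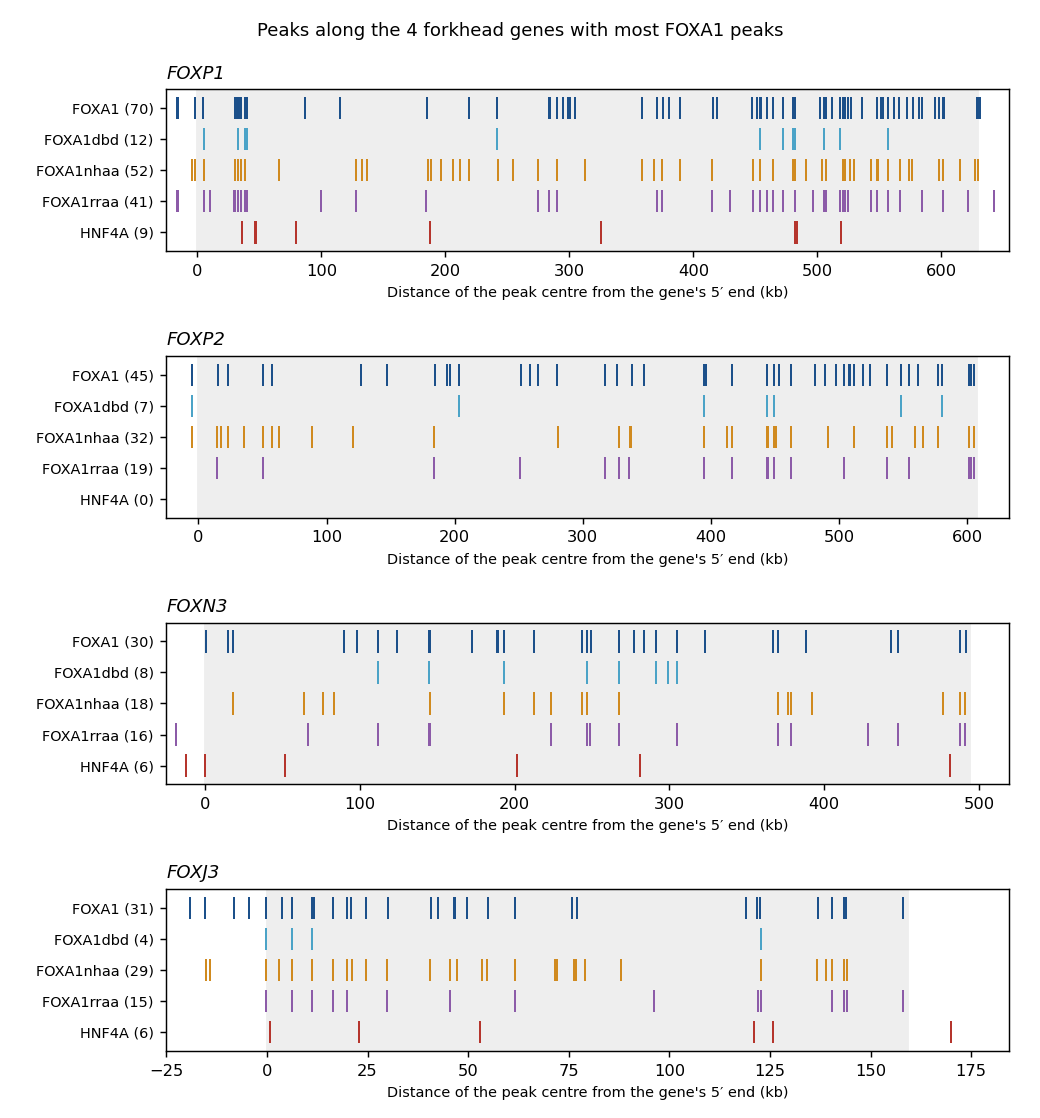
Ticks mark the peak centres of each list (rows, with the number of peaks) against distance in kb from the 5′ end of FOXP1, FOXP2, FOXN3 and FOXJ3, and grey shading marks the gene body. The FOXA1 ticks of FOXP1 are densest between 500 and 600 kb, and the HNF4A row of FOXP2 is empty.

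The highest-scoring FOXA1 peak at any forkhead gene was not in these long genes but in an intron of FOXK2, a repressor closely related to FOXK1, at chr17:80489167-80489755. Its score of 647, the authors' own value and used here only within a list, was above that of 99.8% of autosomal FOXA1 peaks, and peaks of all 3 variants overlapped it. FOXK2 had 6 FOXA1, 4 FOXA1dbd, 3 FOXA1nhaa, 3 FOXA1rraa and 5 HNF4A peaks. FOXO3, a target of insulin signalling that acts in stress resistance, had 18 FOXA1, 3 FOXA1dbd, 11 FOXA1nhaa, 9 FOXA1rraa and 9 HNF4A peaks. The strongest FOXA1 peak there (score 550) lay in an intron 54641 bp from the 5′ end, and FOXA1nhaa and FOXA1rraa but not FOXA1dbd peaks overlapped it. FOXO1, its close relative in the control of glucose production, had 8 FOXA1, 0 FOXA1dbd, 11 FOXA1nhaa, 4 FOXA1rraa and 4 HNF4A peaks. It had more FOXA1nhaa than FOXA1 peaks, and 7 of those 11 lay outside every FOXA1 peak.

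The other widely expressed members had between 0 and 8 FOXA1 peaks. FOXN2, whose role is little known, had 8 FOXA1, 0 FOXA1dbd, 2 FOXA1nhaa, 4 FOXA1rraa and 3 HNF4A peaks. All 4 of its FOXA1rraa peaks were rows of the FOXA1 list, as were 32.4% of all autosomal FOXA1rraa peaks. FOXK1, a repressor of autophagy genes, had 4 FOXA1, 2 FOXA1dbd, 1 FOXA1nhaa, 2 FOXA1rraa and 7 HNF4A peaks, so HNF4A peaks were the more numerous. FOXM1, which drives genes of mitosis, had 2, 0, 1, 0 and 5 in the same order of lists, and FOXJ2 had 2, 0, 3, 1 and 1. FOXP4, which works with FOXP1 in lung and other organs, had 0 peaks of FOXA1 and each variant and 5 HNF4A peaks, although its window of 96.0 kb is longer than that of most of the family.

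The forkhead core is shown here at FOXA1 peaks of these genes that were chosen for holding one. Sites that all variants kept did not all hold a core in the central 200 bp. The strongest such site held one at FOXP1 and FOXN3, and none at FOXP2, FOXJ3, FOXO3 and FOXK2. The following are the central 200 bases of FOXA1 peaks in FOXJ3, FOXP1 and FOXN3, hg19, plus strand, 5′ to 3′, with the core TGTTTAC or TATTTAC, or its reverse complement, in capitals. The FOXJ3 peak is the strongest with a core at a forkhead gene (score 506) and was overlapped by FOXA1nhaa and FOXA1rraa but not FOXA1dbd. The other 4 were overlapped by all 3 variants, with scores of 461 and 205 in FOXP1 and 396 and 163 in FOXN3.
FOXJ3 intron, chr1:42781470-42781669: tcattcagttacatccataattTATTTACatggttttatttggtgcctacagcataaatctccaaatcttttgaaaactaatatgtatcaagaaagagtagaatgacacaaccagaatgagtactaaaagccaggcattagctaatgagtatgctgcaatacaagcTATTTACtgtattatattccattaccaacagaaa
FOXP1 intron near the 5′ end, chr3:71628145-71628344: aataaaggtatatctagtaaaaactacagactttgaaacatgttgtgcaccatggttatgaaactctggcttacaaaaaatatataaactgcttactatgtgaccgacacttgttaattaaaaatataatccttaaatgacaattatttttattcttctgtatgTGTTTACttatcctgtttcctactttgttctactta
FOXP1 intron, deeper site, chr3:71594504-71594703: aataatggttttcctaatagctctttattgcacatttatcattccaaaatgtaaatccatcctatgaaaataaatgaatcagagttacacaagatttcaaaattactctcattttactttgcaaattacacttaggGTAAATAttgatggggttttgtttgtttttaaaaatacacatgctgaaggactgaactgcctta
FOXN3 intron, higher score, chr14:89817980-89818179: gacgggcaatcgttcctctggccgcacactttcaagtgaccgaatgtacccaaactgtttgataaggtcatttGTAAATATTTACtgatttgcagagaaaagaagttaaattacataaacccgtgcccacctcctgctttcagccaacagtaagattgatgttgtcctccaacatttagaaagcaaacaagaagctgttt
FOXN3 intron, lower score, chr14:89940339-89940538: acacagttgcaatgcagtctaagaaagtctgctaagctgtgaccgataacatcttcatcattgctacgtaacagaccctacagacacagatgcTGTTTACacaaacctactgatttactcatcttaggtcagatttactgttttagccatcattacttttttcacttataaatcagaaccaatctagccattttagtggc
In the FOXJ3 window TATTTAC occurs at 2 places, and in the stronger FOXN3 site the capitals GTAAATATTTAC are 2 overlapping copies of TATTTAC on opposite strands. The deeper FOXP1 site lies under the highest FOXA1nhaa peak at a forkhead gene (score 438, fold enrichment 15.0), a row that the FOXA1rraa list also holds, and under a FOXA1dbd peak of score 188 that was the highest of its list at a forkhead gene, together with a peak upstream of FOXC1 with the same score. All FOXP1 positions also lie in an intron of ENSG00000285708, an overlapping gene model.

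Over all FOXA1 peaks at forkhead genes, 46 of 264 (17.4%, 13.3 to 22.5) held a core in the central 200 bp, compared with 18.2% of autosomal FOXA1 peaks. The core was found in 12 FOXA1 peaks at FOXP1, 10 at FOXP2, 9 at FOXN3 and 4 at FOXJ3. For FOXA1dbd the share was 16% (8.34 to 28.5, all peaks 22.1%), for FOXA1nhaa 15.3% (10.8 to 21.1, all peaks 13.6%) and for FOXA1rraa 17.9% (12.3 to 25.3, all peaks 20%). HNF4A peaks held the forkhead core in 6 of 105 cases (5.71%, 2.64 to 11.9, all peaks 3.25%). Each interval took in the share over all autosomal peaks of its list. The core CAAAGTCCA of HNF4 proteins was found in 0 of the 105 HNF4A peaks, which allows a share of up to 2.86%, and in 0.985% of all autosomal HNF4A peaks.

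Most FOXA1 peaks lay inside the genes and away from starts. The centre was inside a forkhead gene for 223 of 264 FOXA1 peaks (84.5%, 79.6 to 88.3), in an intron for 212 (80.3%), and within 1000 bp of a start of the forkhead gene for 23 (8.71%, 5.88 to 12.7). No centre lay in a coding exon, which allows a share of up to 1.14%. HNF4A peaks at forkhead genes were placed otherwise. Of 105, 65 lay inside a forkhead gene (61.9%, 52.4 to 70.6), 49 in an intron (46.7%), 16 in a coding exon (15.2%, 9.60 to 23.3) and 32 within 1000 bp of a start (30.5%, 22.5 to 39.8). The FOXA1 and HNF4A intervals did not meet for gene bodies, coding exons or starts. They treat the peaks as independent, although many lay in the same long genes. FOXP1, FOXP2, FOXJ3 and FOXN3 held 176 of the 264 FOXA1 peaks and 21 of the 105 HNF4A peaks. The part of these genes in the contrast was not tested. Shares in gene bodies, introns and coding exons are not given over all autosomal peaks. For starts, the share over all autosomal peaks counts any protein-coding start, not those of forkhead genes alone. Counted in that way, 24 of the 264 FOXA1 centres lay within 1000 bp of a start (9.09%, 6.19 to 13.2, all peaks 6.18%). Of the HNF4A centres 41 of 105 did (39.0%, 30.3 to 48.6, all peaks 33.5%). The contrast at starts is thus found across the lists. The median GC content of the central 200 bp was 34% at FOXA1 peaks and 59.5% at HNF4A peaks of forkhead genes, and 32.5% and 52.5% over all autosomal peaks.

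A FOXA1 peak lay at a start of 8 forkhead genes (17.0%, 8.89 to 30.1, all genes 25.2%), which were FOXP1, FOXJ3, FOXN3, FOXD1, FOXL1, FOXS1, FOXB1 and FOXN4. Counting the 5′ end of the gene alone, the share was 6.38% (all genes 7.60%), since most of these starts are alternative ones inside the gene. In FOXJ3 a peak of score 97 lay 222 bp upstream of the 5′ end and was overlapped by all 3 variants, and the peak of score 506 whose sequence is given lay 440 bp from an inner start. FOXS1, a gene of vascular mural cells, had a peak of score 70 centred 598 bp upstream of its start. In FOXN4, which acts in retinal and spinal interneurons, the peak of score 273 lay 850 bp from an inner start, and no variant peak overlapped it. Of the 23 FOXA1 peaks at starts, 8 were overlapped by FOXA1dbd (34.8%, 18.8 to 55.1, all protein-coding starts 18.0%), 7 by FOXA1nhaa (30.4%, 15.6 to 50.9, all 45.2%), 12 by FOXA1rraa (52.2%, 33.0 to 70.8, all 42.4%) and 0 by HNF4A, which allows up to 13.0% (all 3.25%). Only for FOXA1dbd did the share over all starts lie outside the interval, below it. That interval treats the peaks as independent, although FOXP1, with 67 annotated starts, held 12 of the 23, some of the 8 among them. At least 1 of the FOXA1dbd, FOXA1nhaa, FOXA1rraa and HNF4A lists overlapped 13 of the 23 (56.5%, 36.8 to 74.4, all 63.6%). For FOXA1dbd the share of genes with a start peak was 8.51% (all genes 7.74%), for FOXA1nhaa 8.51% (19.9%) and for FOXA1rraa 12.8% (14.9%).

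HNF4A peaks lay at a start of 20 forkhead genes (42.6%, 29.5 to 56.7, all genes 48.8%); the share was above that of all genes without the FOXD4 copies (50% against 48.8%), at the gene's 5′ end alone (40.4% against 39.9%) and in the top 50% of the list by score (31.9% against 31.5%). Of the 11 widely expressed genes, 10 had such a peak and FOXK2 did not. Among the 9 genes of mesoderm and mesenchyme the count was 7, namely FOXC1, FOXC2, FOXD1, FOXF1, FOXF2, FOXL1 and FOXL2. The remaining genes were FOXE1, FOXO6 and FOXL2NB, the last sharing its peak with FOXL2. None of the 6 nervous system genes had an HNF4A peak at a start, and FOXB1 alone among them had an HNF4A peak in its window. The 32 HNF4A peaks at forkhead starts overlapped 0 peaks of FOXA1 or of any variant, which allows a share of up to 9.38%, and 3.48% of HNF4A peaks at all protein-coding starts overlapped at least 1 of them. By list that share was 2.52% for FOXA1, 0.867% for FOXA1dbd, 2% for FOXA1nhaa and 1.21% for FOXA1rraa. Median GC content in the 1000 bp at the 5′ end was 68.7% for the 20 forkhead genes with such a peak and 62.7% for the other 27, and 62.1% and 55.8% over all genes. The 27 include the FOXD4 copies, with 43.4% to 58.2%, where a missing peak and reads that were not placed cannot be told apart. The part of GC content in the start peaks was not tested.

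**Figure D4:**
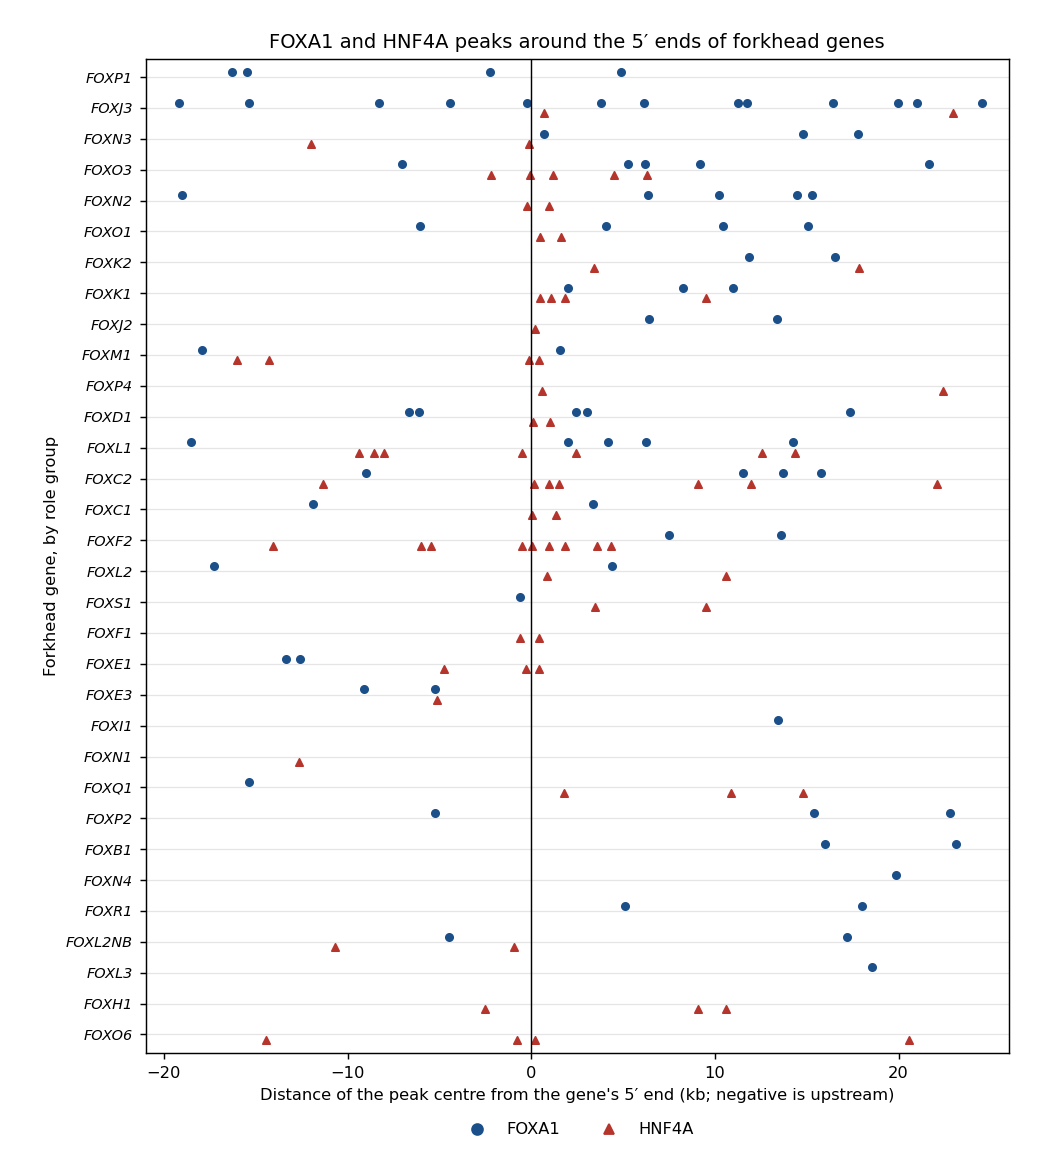
Each symbol is the centre of a FOXA1 peak (blue circle) or an HNF4A peak (red triangle), plotted by its distance in kb from the gene's 5′ end (vertical line), for forkhead genes with a peak in this range, 1 gene not shown. HNF4A triangles gather at the line for FOXF2, FOXC2, FOXO3 and FOXD1, where the nearest FOXA1 circles lie more than 2 kb away.

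The highest HNF4A peak at a forkhead gene was at FOXD1, a marker of the kidney stroma, at chr5:72744195-72744769, in a UTR 88 bp from the start. Its score was 911 and its fold enrichment 22.8, above 99.5% of autosomal HNF4A peaks. FOXD1 had 5 FOXA1, 0 FOXA1dbd, 2 FOXA1nhaa, 1 FOXA1rraa and 2 HNF4A peaks. With each row of the list counted, its 11.4 FOXA1 peaks per 100 kb were the highest density in the family after FOXJ3. Its FOXA1 peaks include neighbouring rows with the same score of 119, and FOXO3 was close behind with 10.9. The rank can therefore change if such rows are joined. FOXF2, needed in gut and palate mesenchyme, had the most HNF4A peaks for its size. The counts were 2 FOXA1, 0 FOXA1dbd, 1 FOXA1nhaa, 1 FOXA1rraa and 9 HNF4A peaks, which is 19.6 HNF4A peaks per 100 kb. Those 9 ran from 14075 bp upstream to 4356 bp downstream of the 5′ end, where the strongest had a score of 562, and the FOXA1 peaks lay beyond them at 7495 and 13592 bp. FOXF1, its partner in lung and gut mesenchyme, had 0 peaks of FOXA1 and the variants and 2 HNF4A peaks, both at the start, with scores of 64 and 41.

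FOXC1, FOXC2 and FOXL1 are genes of mesenchyme, vessels and gut stroma. FOXC1 had 2 FOXA1, 2 FOXA1dbd, 4 FOXA1nhaa, 2 FOXA1rraa and 2 HNF4A peaks. Its FOXA1 peaks had scores of 276, centred 11871 bp upstream, and 279, in a UTR 3369 bp downstream of the 5′ end, and all 3 variants overlapped both. The upstream site is shown here because the highest FOXA1dbd score at forkhead genes was measured there, with hg19, strand and capitals as above.
Upstream of FOXC1, chr6:1598179-1598378: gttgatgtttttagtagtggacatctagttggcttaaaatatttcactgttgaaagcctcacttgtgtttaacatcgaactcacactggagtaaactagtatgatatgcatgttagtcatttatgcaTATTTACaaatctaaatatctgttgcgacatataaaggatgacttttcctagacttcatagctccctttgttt
FOXC2 and FOXL1 are neighbours on chromosome 16 and share peaks. FOXC2 had 4 FOXA1, 2 FOXA1dbd, 3 FOXA1nhaa, 1 FOXA1rraa and 7 HNF4A peaks, and FOXL1 had 5, 2, 5, 3 and 7. The strongest HNF4A peak of the pair (score 334) lay in a coding exon of FOXL1. The other mesenchymal genes were FOXL2, an ovarian regulator, with 2, 0, 1, 1 and 2 peaks, FOXS1 with 1, 0, 0, 1 and 2, and FOXD2 with 0 in every list.

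In the nervous system and neural crest group, FOXB1, a gene of the developing diencephalon, had 7 FOXA1, 1 FOXA1dbd, 2 FOXA1nhaa, 4 FOXA1rraa and 1 HNF4A peaks. All 4 FOXA1rraa peaks were rows of the FOXA1 list (all FOXA1rraa peaks 32.4%). FOXN4 had 2, 0, 2, 0 and 0 peaks. FOXD3, a neural crest gene, had 2 peaks and FOXB2 had 1, all in the FOXA1nhaa list, with scores of 94, 72 and 34. All 6 genes of the group had FOXA1nhaa peaks (all genes 70.8%), and 4 had FOXA1 peaks (all genes 77.2%).

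The 7 genes of ectoderm and epithelium had 7 FOXA1 and 9 HNF4A peaks over windows of 334 kb in total, and 0 to 2 FOXA1 peaks each. FOXA1 peaks were found at 5 of them (all genes 77.2%) and HNF4A peaks at 4 (all genes 77.4%). Median peaks per 100 kb were 2.28 for FOXA1 (all genes 4.04) and 2.39 for HNF4A (all genes 2.34). FOXE1, a thyroid gene, had 2 FOXA1, 1 FOXA1dbd, 0 FOXA1nhaa, 0 FOXA1rraa and 3 HNF4A peaks. FOXE3, a lens gene, had 2, 0, 0, 0 and 1, and FOXQ1 had 1, 1, 0, 1 and 3. FOXN1, which specifies thymic epithelium, had 1, 0, 0, 0 and 2, and FOXI1, a gene of ion-transporting cells, had 1, 0, 1, 0 and 0. FOXI2 and FOXI3 had none. Of the remaining genes, FOXR1 had 3, 1, 2, 2 and 1, FOXL2NB 2, 0, 1, 0 and 2, and FOXL3 1 FOXA1 peak alone. FOXO6 had 0 FOXA1, 0 FOXA1dbd, 0 FOXA1nhaa, 1 FOXA1rraa and 4 HNF4A peaks, and FOXO3B had 1 FOXA1rraa peak and no other. The FOXA1rraa peaks of FOXO6 and FOXO3B had the name prefix Nonspecific_FOX. FOXH1, a partner of SMAD proteins in early patterning, had 3 HNF4A peaks and no other. FOXJ1, the regulator of motile cilia, had none.

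FOXD4, FOXD4L1, FOXD4L2, FOXD4L3, FOXD4L4, FOXD4L5 and FOXD4L6 are near-identical copies, 6 of them on chromosome 9. No list had a peak in any of the 7 windows, which cover 299 kb. Between 66.0% and 100% of the 50-base words in these windows also occur in the window of another forkhead gene, compared with at most 8.30% elsewhere in the family (FOXO3B). How reads that map equally well to several places were treated is not given in the sources used here, so a missing peak and reads that were not placed cannot be told apart.

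The variants were compared with FOXA1 site by site. Of the 264 FOXA1 peaks at forkhead genes, 49 (18.6%, 14.3 to 23.7) shared at least 1 bp with a FOXA1dbd peak, compared with 17.5% of autosomal FOXA1 peaks. For FOXA1nhaa the number was 99 (37.5%, 31.9 to 43.5, all peaks 40.1%) and for FOXA1rraa 107 (40.5%, 34.8 to 46.5, all peaks 40.1%). All 3 variants overlapped 23 FOXA1 peaks (8.71%, 5.88 to 12.7, all peaks 8.32%), and none of them overlapped 115 (43.6%, 37.7 to 49.6, all peaks 41.1%). Each of these shares was within counting error of that over all FOXA1 peaks. The variant lists are not independent, since the FOXA1rraa list holds rows of the FOXA1 and FOXA1nhaa lists, as given below. A row taken from the FOXA1 list overlaps FOXA1 in any case. The counts for all 3 variants and for none include such rows and are not given without them. The 23 sites kept by all variants were spread over 8 genes, among them FOXP1 with 6, FOXJ3 with 4, FOXP2 and FOXN3 with 3 each, FOXK2 and FOXC1 with 2 each, and FOXO3 with 1. Their median FOXA1 score was 241 and their median width 489 bp, compared with a score of 90 and a width of 234 bp for the 115 sites that no variant overlapped. The same medians of the score over all autosomal FOXA1 peaks were 231.5 and 98. A wide peak overlaps others more easily, and the part of width was not tested.

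**Figure D5:**
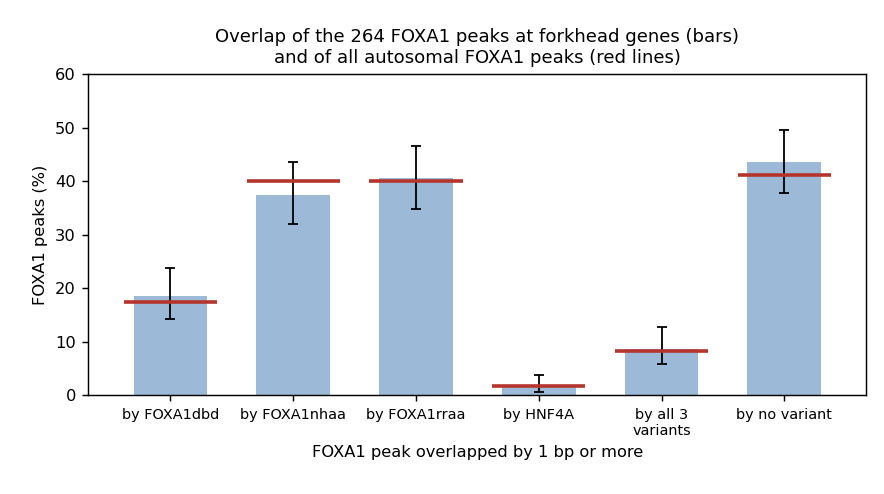
Bars give the percentage of the 264 FOXA1 peaks at forkhead genes that share at least 1 bp with a peak of another list, with all 3 variants or with none, lines are 95% Wilson intervals, and red lines give the percentage over all autosomal FOXA1 peaks. Each red line falls within the interval of its bar, from 1.70% for HNF4A to 41.1% for no variant.

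Seen from the variants, 49 of the 50 FOXA1dbd peaks at forkhead genes overlapped a FOXA1 peak (98.0%, 89.5 to 99.6, all peaks 96.2%). The exception was a peak of score 54 in an intron of FOXN3. Of the FOXA1nhaa peaks 101 of 190 did (53.2%, 46.1 to 60.1, all peaks 58.5%), and those outside FOXA1 peaks included 24 at FOXP1, 15 at FOXP2, 10 at FOXJ3, 8 at FOXN3 and 7 at FOXO1. The strongest of them, with a score of 320, lay 11511 bp upstream of FOXO3. Of the FOXA1rraa peaks 108 of 134 overlapped FOXA1 (80.6%, 73.1 to 86.4, all peaks 86.9%), an interval below the share over the list. That difference was not kept in each alternative: with lists of equal length the share was 45.1% (32.3 to 58.6), above the 42.7% over all peaks, and without FOXP1, FOXP2, FOXJ3 and FOXN3 it was 86.0% (72.7 to 93.4). The intervals also took in the share over all peaks when an overlap of 50% of the shorter peak was asked for (79.9%, all peaks 84.8%) or centres within 200 bp (72.4%, all peaks 75.3%). The list also holds rows in common with others. Of the 134 FOXA1rraa peaks, 44 (32.8%, all peaks 32.4%) had the coordinates and name prefix of FOXA1 rows. Another 74 (55.2%, all peaks 58.2%) were rows of the FOXA1nhaa list. The other 16 (11.9%, all peaks 9.37%) belonged to neither, and all 16 had the name prefix Nonspecific_FOX. Without the 44 rows, 71.1% of the other 90 overlapped a FOXA1 peak (all peaks 80.6%), and 23.9% of the FOXA1 peaks were overlapped.

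FOXA1 and HNF4A met at 4 sites of forkhead genes, which is 1.52% of the FOXA1 peaks (0.591 to 3.83, all peaks 1.70%) and 3.81% of the HNF4A peaks (1.49 to 9.39, all peaks 6.81%). The FOXE3 site lay 5247 bp upstream of the gene, the FOXL1 site 14264 bp downstream of the 5′ end, the FOXO3 site in an intron at 6181 bp and the FOXK1 site in an intron at 1975 bp. Their FOXA1 scores were 78, 152, 79 and 99, and the scores of the HNF4A peaks were 210, 237, 61 and 387. At 3 of the 4 sites the FOXA1 score was below 124, the median of the list. The sites at FOXL1 and FOXK1, which had the highest scores in both lists, are printed in the same form, followed by the HNF4A peak with the highest score at a forkhead gene outside exons (703), in an intron of FOXN3 281055 bp from the 5′ end. These 3 were chosen after their values were seen.
Downstream of FOXL1, chr16:86624138-86624337: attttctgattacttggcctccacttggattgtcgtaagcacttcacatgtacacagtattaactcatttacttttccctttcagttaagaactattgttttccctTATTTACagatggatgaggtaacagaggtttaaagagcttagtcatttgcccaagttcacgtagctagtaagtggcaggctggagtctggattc
FOXK1 intron, chr7:4723801-4724000: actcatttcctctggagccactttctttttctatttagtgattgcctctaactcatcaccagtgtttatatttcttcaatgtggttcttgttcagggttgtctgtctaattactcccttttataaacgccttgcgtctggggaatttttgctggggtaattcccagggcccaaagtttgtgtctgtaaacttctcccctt
FOXN3 intron, HNF4A peak, chr14:89804338-89804537: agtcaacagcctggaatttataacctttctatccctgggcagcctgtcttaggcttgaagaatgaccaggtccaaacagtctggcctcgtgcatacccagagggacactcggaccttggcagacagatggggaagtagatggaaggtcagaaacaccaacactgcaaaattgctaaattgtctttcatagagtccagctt
The FOXL1 site holds TATTTAC, and these windows of the FOXK1 and FOXN3 sites hold neither form of the core and no CAAAGTCCA. FOXA1dbd peaks also overlapped the FOXK1 and FOXO3 sites, FOXA1rraa peaks the FOXK1, FOXO3 and FOXL1 sites, and a FOXA1nhaa peak the FOXL1 site.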

How the data were processed

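Tagged proteins were mapped by ChIP-seq in BJ fibroblasts. The series has 26 samples, and groups came from sample titles. Per the submitters' processing notes, Bowtie2 2.3.4.1, Picard, GATK 4.2.6.0, bedtools 2.27.1, MACS2 2.2.7.1 and deepTools 3.5.0 were named with build hg19, without settings. Whether peaks were called per library or on pooled libraries, and how the inputs were used, is not given in the sources used here. In the deposited FOXA1 list each peak has a score alone. For the other 4 constructs the deposited lists add fold enrichment over background (a ratio), significance as −log10 of p and q, and a summit offset, which placed the centre. The lowest deposited score was 20 in each list. The lists carry mixed peak-name prefixes: the FOXA1dbd peaks at forkhead genes comprised 42 named IP1, 7 named IP3 and 1 named WT_FOX. The FOXA1rraa peaks there included 16 named Nonspecific_FOX. What these names mean is not given in the sources used here.

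Rows with the same coordinates were counted once, in Python 3.11.15 with numpy 2.4.6. Rows of the FOXA1 list with the same peak name, apart from a suffix, were counted separately. Joining them left 257 rather than 264 FOXA1 peaks at forkhead genes. The largest peak end on each chromosome lay within its GRCh37 length, and genes came from GENCODE 44 lifted to GRCh37. Peaks were joined to windows and to each other at 1 bp or more. The centre of a peak is its summit where that lies inside the row and the midpoint otherwise, always the midpoint for FOXA1. Both strands of the central 200 bp were searched for TGTTTAC or TATTTAC and for CAAAGTCCA. A start peak has its centre within 1000 bp of an annotated start of the gene. Joins, window counts and core searches were tested on simulated data and returned the numbers put in. Each forkhead gene is named with its FOXA1 count, and values in all 5 lists are given at least for the 10 with most FOXA1 peaks, the 10 with the highest FOXA1 density, those with 0 FOXA1 peaks, those with a FOXA1 or HNF4A start peak and those with overlapping windows. Named peaks are the highest of each list, and at the 10 genes with most peaks the highest FOXA1 peak kept by all 3 variants; printed sequences are up to 5 FOXA1 peaks at any forkhead gene kept by all 3 variants with a core, by score, and the highest of each list with its own core. Members, role groups and lists were chosen with earlier results of these data known. FOXD4L2 was placed with the FOXD4 copies by its symbol. Other flanks, peak subsets, overlap rules, centres, cores, starts and member sets were tried as alternatives. For 1 of the 47 genes, values are part of the totals and are not reported here. The HALO-tagged H2B samples and the down-sampled FOXA1 list were not analysed here.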

Additional observations from a re-analysis of the deposited data

How the results depend on the processing

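Counts are called moved when they differ by more than 1.5 times, and shares when they leave the 95% interval of the reported value. Of the alternative values, 228 did neither and 84 moved. Part of the 228 could not move, since an alternative that changes 1 list leaves the other lists as they were. Leaving out the FOXD4 copies also cannot change counts, overlaps or cores of peaks, as the copies hold none. The same applies to the comparison with all genes or all peaks that follows. Set against all genes or all peaks, the value lay on the other side in 38 of 262 alternatives. These include the share of genes with a FOXA1, FOXA1dbd, FOXA1nhaa or FOXA1rraa peak in windows under 60 kb without the FOXD4 copies, a setting added after seeing the data, the HNF4A density without the copies (2.81 against 2.34) or without FOXP1, FOXP2, FOXJ3 and FOXN3 (2.39 against 2.34), and the core in FOXA1 peaks in the central 100 bp (11.7% against 10.1%). The gap to all genes in the share with a peak was within the interval for all 5 lists without the FOXD4 copies, for 4 of 5 with 100 kb on either side 3 of 5 with the gene body alone and 2 of 5 in the top 50%, and for FOXA1rraa without FOXL2NB. No paired analysis was possible because a construct has a single list without replicate numbers, so replicates also could not be left out in turn. Read depth is unknown, so a gene with no peak cannot be told apart from a site below the authors' threshold. The causes of the changes that follow were not tested beyond what each alternative removes or adds.

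With the gene body alone, 68 HNF4A peaks were left, the share of genes with a peak was 36.2% for FOXA1, 29.8% for FOXA1nhaa, 31.9% for FOXA1rraa and 44.7% for HNF4A, and the median density of FOXA1, FOXA1nhaa and HNF4A was 0. With 100 kb on either side, the lists held 503 FOXA1, 94 FOXA1dbd, 350 FOXA1nhaa, 221 FOXA1rraa and 239 HNF4A peaks, at 91.5%, 66.0%, 85.1%, 78.7% and 83.0% of the genes, and the median density was 0.493 for FOXA1dbd and 1.46 for FOXA1rraa. With windows under 60 kb, the share with a FOXA1rraa peak was 34.4%, the median density was 1.13 for FOXA1, 0 for FOXA1nhaa and 0 for HNF4A, and the share with a start peak was 3.12% for FOXA1rraa and 0% for both FOXA1dbd and FOXA1nhaa (the shares with a peak and with a start peak were added after seeing the data).

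In the top 50% of each list by score there were 121 FOXA1, 98 FOXA1nhaa, 68 FOXA1rraa and 46 HNF4A peaks. FOXA1rraa peaks were then found at 34.0% of the genes, the median density was 0 for FOXA1, FOXA1nhaa and HNF4A, and start peaks were found at 8.51% for FOXA1 and 4.26% for FOXA1rraa. FOXA1nhaa overlapped 27.3% of the FOXA1 peaks, and FOXA1 was overlapped by 67.6% of the FOXA1dbd, 33.7% of the FOXA1nhaa and 66.2% of the FOXA1rraa peaks. When each list was reduced to its 28831 peaks of highest score, 45 FOXA1, 59 FOXA1nhaa and 51 FOXA1rraa peaks were at 29.8%, 27.7% and 23.4% of the genes. The median density was then 0 for FOXA1, 0 for FOXA1nhaa and 1.21 for HNF4A, FOXA1dbd overlapped 40.0%, FOXA1rraa 51.1% and HNF4A 0% of the FOXA1 peaks, and in reverse 36.0% of FOXA1dbd, 25.4% of FOXA1nhaa, 45.1% of FOXA1rraa (all peaks 42.7%) and 0% of HNF4A peaks overlapped FOXA1.

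Without FOXP1, FOXP2, FOXJ3 and FOXN3, a set chosen after seeing the data, 88 FOXA1, 19 FOXA1dbd, 59 FOXA1nhaa and 43 FOXA1rraa peaks were left, and the median FOXA1nhaa density was 0. FOXA1nhaa then overlapped 30.7% and HNF4A 4.55% of the FOXA1 peaks, FOXA1 was overlapped by 100% of the FOXA1dbd and 45.8% of the FOXA1nhaa peaks, and the core was in 12.5% of the FOXA1 peaks. Without the rows it shares with FOXA1, the FOXA1rraa list had a peak at 34.0% of the genes, overlapped 23.9% of the FOXA1 peaks and had 71.1% of its own overlapped. The median FOXA1rraa density was 0.774 without FOXL2NB and 1.72 without the FOXD4 copies. With centres within 200 bp, 45.3% of the FOXA1nhaa and 72.4% of the FOXA1rraa peaks (all peaks 75.3%) overlapped FOXA1. In the central 100 bp the core was in 11.7% of FOXA1, 8.42% of FOXA1nhaa and 11.9% of FOXA1rraa peaks, and TGTTTAC alone was in 8.71%, 7.37% and 9.70%. With the gene's 5′ end alone, start peaks were at 6.38% of the genes for FOXA1, 2.13% for FOXA1dbd, 2.13% for FOXA1nhaa and 4.26% for FOXA1rraa.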

Other observations

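Forkhead genes outside the set were counted in the same way. The FOXA1 gene itself had 1 FOXA1, 1 FOXA1dbd, 0 FOXA1nhaa, 1 FOXA1rraa and 1 HNF4A peaks in its window, FOXA3 had the same counts, and FOXA2 had none. On chromosome X, FOXO4 had 2 HNF4A peaks, FOXP3 had 1 and FOXR2 had 0, and none of the 3 had a peak of FOXA1 or a variant.

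Several genes with no FOXA1 peak in the window had some within 100 kb of the gene, among them 15 at FOXD2, 12 at FOXD3, 7 at FOXO6 and 6 at FOXF1.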
